A study of Mus musculus with 18 samples.

Results

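The 10 genes described here belong to the naive pluripotency programme and were followed in bulk RNA-seq of mouse embryonic stem cells (mESCs) and of the embryoid bodies (EBs) made from them. They were the 10 symbols Nanog, Esrrb, Tfcp2l1, Klf4, Klf5, Klf2, Tbx3, Prdm14, Zfp42 and Dppa3, taken by name from the 55487 genes of the count table, and all 10 passed the filter that left 25318 genes for testing. The series held 18 libraries of the mouse line ES-E14TG2a. Of these, 6 were mESCs in Serum/LIF at 0 hr (3 IκBα-WT clones, genotype IkappBalpha+/+, and 3 IκBα-KO clones, genotype IkappBalpha-/-), 6 were EBs at 48 hr and 6 were EBs at 96 hr. Both EB stages held 3 WT and 3 KO samples by the labels. All cells, controls included, had been through CRISPR-Cas9: the KO clones received guides against the first exon of Nfkbia, the gene of IκBα, and the WT clones received scrambled guides, after which single cells were sorted and grown as clones. mESCs were grown on gelatin in medium with serum and LIF, and EBs were formed in a differentiation medium without LIF after 48 hr in a second medium with serum and LIF.

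The EB columns of the count table carry the codes D4, E14, E2, E3, H7 and H9, each once at 48 hr and once at 96 hr, and no label ties a code to a genotype. Sorting the EB libraries into WT and KO by their Nfkbia level would assign a genotype from a measured value, so it was not done. EBs were compared by stage alone, with both genotypes pooled, and KO was compared with WT in mESCs alone. The spread between EB libraries given here therefore includes any difference between genotypes. Replicates within a stage were separate clones by the labels. For KO against WT in mESCs, p-values measure the spread between clones of a genotype. For stages, they measure the spread between libraries of a group, which in EBs pools both genotypes. The paper describes independent clones of each genotype sampled as mESCs and at both EB stages. No label links an mESC clone to an EB code, so these could not be paired. The main stage fit treated all libraries as independent, and its p-values take no account of any clones shared between stages.

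Naive pluripotency is the state of the epiblast before implantation, and mESCs hold it in culture while LIF signals through STAT3. A connected set of transcription factors keeps the state, each acting on the enhancers of several others, and the set is shut down when cells pass to formative pluripotency and then to the germ layers. NANOG is a homeodomain protein, ESRRB an orphan nuclear receptor, TFCP2L1 a CP2-family factor, and KLF4, KLF5 and KLF2 are Krüppel-like zinc finger proteins that bind related GC-rich letters. TBX3 is a T-box factor, and PRDM14 is a PR-domain protein that holds down DNA methyltransferase and FGF signalling genes. ZFP42, also called REX1, is the usual reporter of the naive state. DPPA3, also called STELLA, is a chromatin protein of the oocyte, early embryo and germ line rather than a classical transcription factor, and is grouped with the others as a naive marker.

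RefSeq promoter sequences of build GRCm38.p6 were at hand for 6 of the 10 genes (Nanog, Esrrb, Tfcp2l1, Klf4, Klf2 and Zfp42, with 8 starts in all). The 250 bases before the start are shown for 3 of them: Nanog and Zfp42, the most abundant members, and Klf4, the member with the largest decrease. They are written 5′ to 3′ on the strand of the gene, and capitals mark letters of a POU factor (ATGCAAA), a SOX factor (ACAATG), a KLF factor (CNCACCC), a TCF factor (ATCAAAG) or the ESRRB motif (AAGGTCA), searched on both strands with overlaps allowed.
Nanog, chr6:122707239-122707488, plus strand: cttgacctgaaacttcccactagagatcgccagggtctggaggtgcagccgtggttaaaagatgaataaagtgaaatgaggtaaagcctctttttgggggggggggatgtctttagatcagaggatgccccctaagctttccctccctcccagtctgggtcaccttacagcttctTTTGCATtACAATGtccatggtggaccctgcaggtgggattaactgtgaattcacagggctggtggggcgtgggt
Zfp42, chr8:43307010-43307259, minus strand: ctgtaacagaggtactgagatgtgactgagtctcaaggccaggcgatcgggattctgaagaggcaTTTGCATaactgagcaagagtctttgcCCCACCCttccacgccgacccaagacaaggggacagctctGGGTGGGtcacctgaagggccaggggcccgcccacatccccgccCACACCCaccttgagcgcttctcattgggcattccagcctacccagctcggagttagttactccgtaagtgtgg
Klf4, chr4:55532476-55532725, minus strand: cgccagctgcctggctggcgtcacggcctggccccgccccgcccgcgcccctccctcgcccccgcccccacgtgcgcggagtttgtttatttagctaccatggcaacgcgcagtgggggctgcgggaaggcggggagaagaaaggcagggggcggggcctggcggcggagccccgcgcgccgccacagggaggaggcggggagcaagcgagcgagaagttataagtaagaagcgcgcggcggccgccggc
In the Nanog window, the POU letters lie 75 to 69 bases before the start, on the opposite strand, and the SOX letters lie 67 to 62 bases before it, with 1 base between them. Zfp42 held 1 POU match and 3 KLF matches, whereas the Klf4 window held none of these letters. For KLF factors only CNCACCC was searched, so the other GC-rich letters of the Klf4 window were not counted. Over the 6 genes, POU letters were found in 2 (Nanog and Zfp42), SOX letters in 1 (Nanog), KLF letters in 4 (Esrrb, Klf2, Zfp42 and the second start listed for Nanog), and the TCF and ESRRB letters in none. Among all 32851 promoter windows of that length, the POU letters were in 4.12%, the SOX letters in 10.7%, the KLF letters in 27.5%, the TCF letters in 3.21% and the ESRRB letters in 4.08%. These shares are per window and not per gene. Counted per window, POU letters were in 3, SOX letters in 2 and KLF letters in 5 of the 8 member windows, and the windows of the Nanog starts overlap. A match is a description of the letters in this window and not a measured binding site.

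Library totals ran from 28287582 to 40904247 counts on genes. The lowest count of any member in any library was 38, for Prdm14 in the 96 hr library H7, so counting error was small beside the spread between libraries for the other 9 members. Nfkbia had 34.2, 35.1 and 25.3 CPM (read counts scaled to a common library size with edgeR's TMM factors) in WT clones 1 to 3 and 10.2, 9.44 and 10.1 CPM in KO clones 1 to 3. The KO clones were 3.18-fold lower (log2 fold change -1.67 ± 0.14 SE, adjusted p = 0.0049, edgeR), with no overlap between genotypes. In EBs, Nfkbia ranged from 7.31 to 14.9 CPM at 48 hr (median 9.67) and from 4.97 to 23.0 CPM at 96 hr (median 11.5). Pou5f1 (OCT4), the general pluripotency marker, had 860.4 to 969.97 CPM in all mESC and 48 hr EB libraries. The formative marker Fgf5 had 1.80, 2.53 and 5.71 CPM in WT clones and 0.06, 0.22 and 0.16 CPM in KO clones. It was 21.6-fold lower in KO mESCs (log2 fold change -4.44 ± 0.57, adjusted p = 0.0083, edgeR). At 48 hr it had 6.62 to 61.7 CPM (median 17.4). In mESCs, KO clones 1 and 3 stood apart from KO clone 2 and from WT in a list of 12 primitive endoderm genes, whose summed level was 549, 749 and 90.4 CPM in KO clones 1, 3 and 2 and 97.4 to 114 CPM in WT. At 96 hr, the library E14 stood apart in endoderm genes, as described with Tbx3, and in a list of 10 blood and endothelium genes. The blood and endothelium list summed to 289 CPM in E14 and to 31.9 to 91.0 CPM in the other 96 hr libraries.

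Of the 10 members, 8 were lower in 48 hr EBs than in mESCs at an adjusted p under 0.05 (edgeR quasi-likelihood test, Benjamini-Hochberg over all genes), and none was higher. Among all 25318 genes tested, 12.7% were lower and 15.6% higher by the same rule. With a log2 fold change under -1 required as well, 7 members were lower (all genes, 4.58%), and 8 had all 6 EB libraries below all 6 mESC libraries (all genes, 8.07%). From mESCs to 96 hr, 9 members were lower (all genes, 19.6%) and none higher (all genes, 23.6%), each of the 9 by more than 1 on the log2 scale (all genes, 8.86%), and 8 had no overlap with mESCs (all genes, 11.6%). Both comparisons with mESCs share the same 6 mESC libraries. From 48 hr to 96 hr, only Tfcp2l1 and Dppa3 were lower (2 of 10; all genes, 14%), both by more than 1 (all genes, 4.74%), and none was higher (all genes, 14.1%). The median log2 fold change of the members was -1.71 to 48 hr, -0.61 from 48 hr to 96 hr and -2.32 from mESCs to 96 hr, beside 0.03, -0.03 and 0.03 over all genes.

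The codes shared by a 48 hr and a 96 hr column paired the libraries, and a fit with the code as a block called 5 members lower from 48 hr to 96 hr: Tfcp2l1, Dppa3, Esrrb, Zfp42 and Prdm14 (5 of 10; all genes in that fit, 18.5%). These same 5 were lower at 96 hr in 6 of 6 codes (all genes, 18.7%). The other 5 were not called in either fit. As these are whole-tissue RNA values, fewer cells that express a gene and less RNA per cell cannot be told apart.

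**Figure D1:**
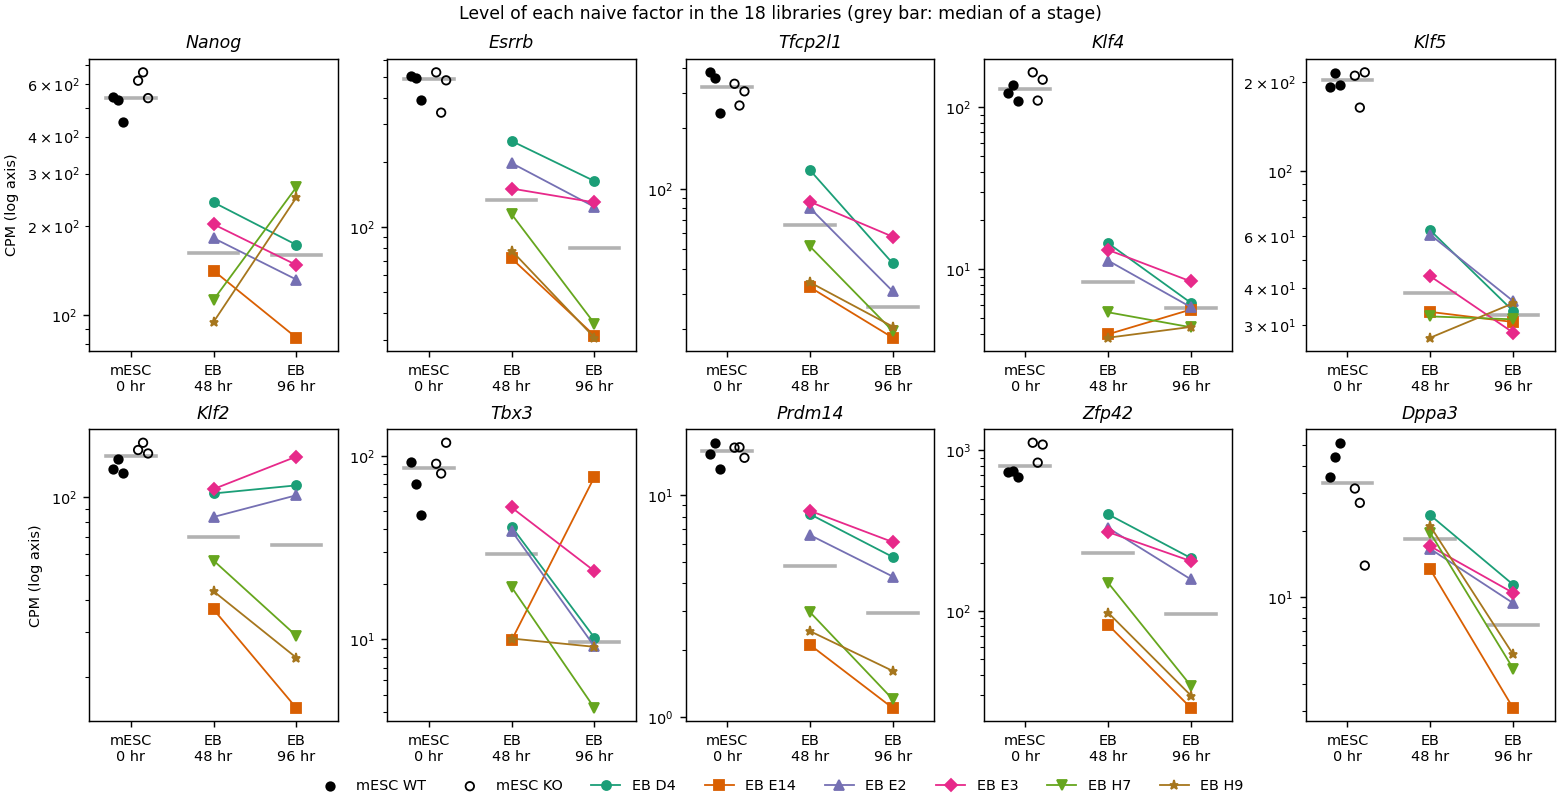
CPM of each of the 10 genes (log axis) in the 3 WT and 3 KO mESC clones, the 6 EB libraries at 48 hr and the 6 at 96 hr; a line joins the 48 hr and 96 hr libraries of one code and the grey bar is the median of a stage. For 8 of the 10 genes all 48 hr libraries lie below all mESC clones, the Nanog lines of H7 and H9 go up to 96 hr, and the Tbx3 line of E14 ends at 76.9 CPM.

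Per kilobase of exon, the scale on which levels of different genes can be set side by side, Zfp42 had the highest median level in mESCs (421 CPM per kb), followed by Nanog (241), Esrrb (80.5), Klf2 (78.1), Klf4 (42.6), Klf5 (39.1), Dppa3 (37.5), Tfcp2l1 (33.9), Tbx3 (12.9) and Prdm14 (6.17). The ranges of Zfp42 and Nanog did not overlap each other, nor did those of Nanog and Esrrb. Esrrb and Klf2 overlapped, and so did each neighbouring pair from Klf4 to Tfcp2l1. Tfcp2l1 was above Tbx3 and Tbx3 above Prdm14 in 6 of 6 clones, without overlap. At 96 hr, Nanog had the highest median (71.3 CPM per kb), then Zfp42 (50.8) and Klf2 (35.4), and Prdm14 the lowest (1.15). The order of Nanog and Zfp42 was not settled there, as Nanog was above Zfp42 in 3 of 6 libraries. Zfp42 was above Klf2 and Klf2 above Esrrb in 6 of 6 libraries at 96 hr.

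Median levels at 96 hr, as a percent of the mESC median, were spread widely. Klf4 kept 4.41%, Tfcp2l1 8.02%, Tbx3 11.3%, Zfp42 12.1%, Klf5 16.0%, Esrrb 16.5%, Prdm14 18.7%, Dppa3 22.2%, Nanog 29.5% and Klf2 45.3%. Leaving out 1 of the 6 libraries of 96 hr, which was tried after the data had been seen, moved 4 of these values by over 1.5 times, as their middle libraries lay far apart. Klf2 then had 20.1% to 70.5%, Zfp42 4.31% to 19.8%, Esrrb 7.35% to 25.6% and Prdm14 10.2% to 27.2%. The order of these 4 among the members is therefore not settled by the medians.

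Nanog lies on chromosome 6 of GRCm38 from 122707489 to 122714633, plus strand (ENSMUSG00000012396). It had 543, 531 and 449 CPM in WT mESC clones and 617, 659 and 539 CPM in KO clones. At 48 hr, its lowest, median and highest values were 94.7, 161 and 239.9 CPM, and at 96 hr they were 83.8, 159.9 and 270.0 CPM. No EB library reached the lowest mESC clone at either stage. Nanog fell 3.42-fold to 48 hr (log2 fold change -1.77 ± 0.26 SE, adjusted p = 6.6e-05), and the difference between 96 hr and 48 hr was 0.12 ± 0.25 (adjusted p = 0.77). That small difference held opposite movements by code. On the log2 scale it changed by -0.75 to -0.46 in D4, E2, E3 and E14, by 1.26 in H7 and by 1.40 in H9. H7 and H9 had the lowest Nanog values at 48 hr (113 and 94.7 CPM) and the highest at 96 hr (269.96 and 249 CPM). Without H7 or H9 at 96 hr, the difference was -0.05 or -0.01.

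Primitive streak genes were high in those libraries. T (Brachyury), the T-box factor of the streak, had 268 and 510 CPM in H7 and H9 at 96 hr, 354 CPM in E14, and 0.71 to 1.45 CPM in D4, E2 and E3. E14, with T at 354 CPM, had the lowest Nanog of the stage (83.8 CPM). The part of streak cells in the Nanog values was not tested. Nanog, Zfp42 and Dppa3 have annotated pseudogenes (Nanog-ps1, Nanog-ps2, Zfp42-ps1 and Dppa3-ps), and as only uniquely mapped reads were counted, their levels are uncertain by the reads shared with these copies.

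Esrrb, on chromosome 12 from 86361117 to 86521628, plus strand (ENSMUSG00000021255), had 503, 492 and 388 CPM in WT clones and 523, 340.2 and 481 CPM in KO clones. Its lowest, median and highest values were 71.7, 133 and 251 CPM at 48 hr and 30.7, 80.0 and 164 CPM at 96 hr, all below the lowest mESC clone. Esrrb fell by 1.66 ± 0.43 on the log2 scale to 48 hr (adjusted p = 0.0076) and was 5.28-fold below mESCs at 96 hr (adjusted p = 0.00032). Between the EB stages it was lower in 6 of 6 codes, from -0.21 in E3 to -1.68 in H7 on the log2 scale. That step missed the threshold without pairing (-0.75 ± 0.42, adjusted p = 0.20) and passed it with the code as a block (-0.92 ± 0.18, adjusted p = 0.0073).

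Tfcp2l1, a target of LIF and STAT3 signalling on chromosome 1 from 118627945 to 118685168, plus strand (ENSMUSG00000026380), had 381, 358 and 240.1 CPM in WT clones and 334, 260.3 and 306 CPM in KO clones. At 48 hr the lowest, median and highest values were 32.3, 65.9 and 124 CPM, and at 96 hr 18.1, 25.7 and 57.7 CPM. It was the member whose profile over the 18 libraries was closest to the mean of the other 9 (Pearson r = 0.992, a description across libraries that share their stages). Tfcp2l1 fell 4.60-fold to 48 hr (log2 fold change -2.20 ± 0.35, adjusted p = 0.00013) and a further 2.16-fold to 96 hr (-1.11 ± 0.34, adjusted p = 0.022). The second step was lower in 6 of 6 codes, and lost its call without the 48 hr library D4 (adjusted p = 0.075), the 96 hr library E14 (0.063) or the 96 hr library H9 (0.052), whereas the paired fit gave -1.05 ± 0.14 (adjusted p = 0.00096). Its exons share 130 bases with the small nuclear RNA gene Gm23497 on the same strand, where reads could not be told apart.

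**Figure D2:**
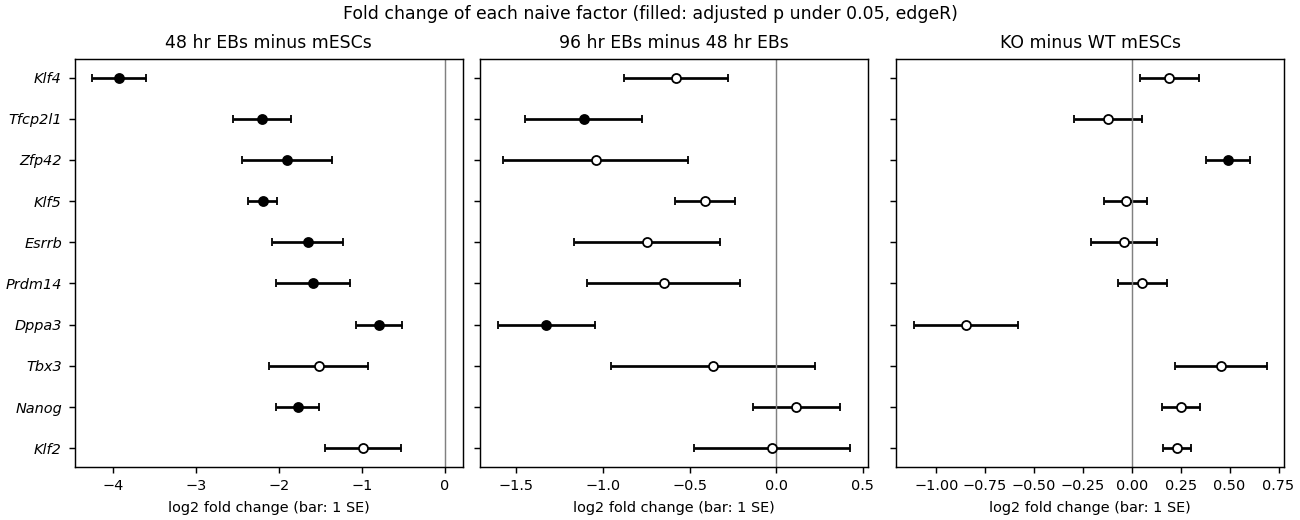
Log2 fold change of each gene with 1 standard error, from mESCs to 48 hr EBs (left), from 48 hr to 96 hr EBs (middle) and between KO and WT mESCs (right), each panel with its own axis range; filled points had an adjusted p under 0.05. Klf4 stands farthest left in the first panel (-3.92), and Tfcp2l1 and Dppa3 are the filled points of the second panel.

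Of the Krüppel-like factors, Klf4 and Klf5 fell between mESCs and 48 hr and were not called between the EB stages, and Klf2 was not called at either step. Klf4, on chromosome 4 from 55527143 to 55532466, minus strand (ENSMUSG00000003032), had 122, 138 and 109.9 CPM in WT clones and 164, 109.9 and 148 CPM in KO clones. In EBs the lowest, median and highest values were 3.78, 8.35 and 14.5 CPM at 48 hr and 4.38, 5.73 and 8.40 CPM at 96 hr. As a ratio, though not in CPM, the gap between the lowest mESC clone and the highest EB library was the widest of any member in these data. Klf4 fell 15.2-fold to 48 hr (log2 fold change -3.92 ± 0.33, adjusted p = 2.4e-07) and was 22.6-fold lower at 96 hr than in mESCs (adjusted p = 5.0e-08). The step from 48 hr to 96 hr was -0.58 ± 0.30 (adjusted p = 0.16), down in 4 codes and up in E14 and H9.

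Klf5, on chromosome 14 from 99298691 to 99315036, plus strand (ENSMUSG00000005148), had 193, 215 and 196 CPM in WT clones and 210.4, 164 and 216 CPM in KO clones. Its values were 27.2, 38.6 and 62.9 CPM (lowest, median and highest) at 48 hr and 28.3, 32.5 and 36.2 CPM at 96 hr. The 96 hr libraries lay within a 1.28-fold range. Klf5 fell by 2.20 ± 0.18 on the log2 scale to 48 hr (adjusted p = 2.1e-07), and the second step was -0.41 ± 0.17 (adjusted p = 0.086), which passed the threshold without the 48 hr library H9 (-0.49, adjusted p = 0.032).

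Klf2, on chromosome 8 from 72319033 to 72321656, plus strand (ENSMUSG00000055148), had 129, 141 and 125 CPM in WT clones and 153, 163 and 148 CPM in KO clones. At 48 hr its lowest, median and highest values were 36.7, 70.3 and 108 CPM, and at 96 hr 15.2, 65.4 and 144 CPM. All 48 hr libraries were below all mESC clones, while the highest 96 hr library (E3, 144 CPM) lay inside the mESC range and was 9.48-fold above the lowest (E14, 15.2 CPM). The log2 fold change was -0.99 ± 0.45 to 48 hr (adjusted p = 0.12) and -1.01 ± 0.45 from mESCs to 96 hr (adjusted p = 0.083). It passed the threshold at 48 hr when only mESCs and 48 hr EBs were fitted (adjusted p = 0.0077), and at 96 hr without E3 (-1.34, adjusted p = 0.024). Between EB stages Klf2 changed by 0.10 to 0.42 on the log2 scale in D4, E2 and E3 and by -1.27 to -0.86 in E14, H7 and H9, around a fitted difference of -0.02 ± 0.45 (adjusted p = 0.98).

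Tbx3, on chromosome 5 from 119670669 to 119684724, plus strand (ENSMUSG00000018604), had 92.3, 70.3 and 47.9 CPM in WT clones and 90.7, 80.2 and 118 CPM in KO clones. Its lowest, median and highest values were 9.88, 29.2 and 52.4 CPM at 48 hr and 4.22, 9.68 and 76.9 CPM at 96 hr, overlapping the mESC range at both stages. The 76.9 CPM belonged to E14, and the next highest 96 hr library had 23.6 CPM. Tbx3 was 3.70-fold lower at 96 hr than in mESCs (log2 fold change -1.89 ± 0.60, adjusted p = 0.018), and without E14 the log2 fold change was -2.84 (adjusted p = 0.00027). To 48 hr the value was -1.52 ± 0.60 (adjusted p = 0.067), which passed the threshold without the 48 hr library E3 (0.046) or the 96 hr libraries E14 (0.014) or H7 (0.047). Between the EB stages it was -0.37 ± 0.59 (adjusted p = 0.68), and -1.31 without E14 (adjusted p = 0.056).

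E14 at 96 hr also had the highest levels of endoderm genes. Gata4 and Gata6, GATA factors of primitive endoderm, had 89.3 and 38.0 CPM there against 1.97 to 15.0 and 0.87 to 13.7 CPM in the other 96 hr libraries, and the HMG factors Sox17 and Sox7 had 38.2 and 23.1 CPM. The 12-gene endoderm list summed to 643 CPM in E14 and to 97.5 to 313 CPM in the others, and no gene of the list was at 0 in E14. E14 also had the highest 96 hr sums of blood and endothelium genes (289 CPM) and of streak and mesoderm genes (1421 CPM). The part of any of these cell types in the Tbx3 value was not tested. Tbx3 exons share 115 bases with the antisense gene Tbx3os1, and the strand setting of the counting is not given in the sources used here.

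Prdm14, on chromosome 1 from 13113457 to 13127163, minus strand (ENSMUSG00000042414), was the lowest of the 10, with 15.3, 17.2 and 13.1 CPM in WT clones and 16.3, 16.4 and 14.7 CPM in KO clones. Its lowest, median and highest values were 2.12, 4.79 and 8.49 CPM at 48 hr and 1.10, 2.96 and 6.14 CPM at 96 hr, so that no EB library overlapped the mESC clones. Prdm14 fell by 1.59 ± 0.45 on the log2 scale to 48 hr (adjusted p = 0.012) and was 4.73-fold below mESCs at 96 hr (adjusted p = 0.00077). The second step, lower in 6 of 6 codes, was -0.65 ± 0.44 without pairing (adjusted p = 0.29) and -0.72 ± 0.15 with it (adjusted p = 0.0062).

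Zfp42, on chromosome 8 from 43295063 to 43306980, minus strand (ENSMUSG00000051176), had 731, 747 and 677 CPM in WT clones and 1112, 836 and 1083 CPM in KO clones. In EBs the lowest, median and highest values were 81.9, 229 and 399 CPM at 48 hr and 24.9, 95.5 and 213 CPM at 96 hr. Each EB library was below each mESC clone. Zfp42 fell 3.75-fold to 48 hr (log2 fold change -1.91 ± 0.54, adjusted p = 0.014) and was 7.71-fold lower at 96 hr than in mESCs (adjusted p = 0.00047). The 48 hr call was lost when WT mESCs alone were the reference (-1.66, adjusted p = 0.071). From 48 hr to 96 hr it was lower in 6 of 6 codes, from -0.60 to -2.13 on the log2 scale, with -1.04 ± 0.53 without pairing (adjusted p = 0.15) and -1.32 ± 0.20 with it (adjusted p = 0.0026).

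Dppa3, on chromosome 6 from 122626410 to 122630272, plus strand (ENSMUSG00000046323), lies 77216 bases upstream of Nanog. It had 35.4, 43.8 and 50.9 CPM in WT clones and 31.4, 27.0 and 13.9 CPM in KO clones. Its lowest, median and highest values were 13.4, 18.4 and 23.7 CPM at 48 hr and 3.09, 7.41 and 11.4 CPM at 96 hr. At 48 hr the range of Dppa3 still overlapped that of mESCs (KO clone 3), and at 96 hr it lay below all mESC and all 48 hr libraries, the only member with no overlap between the EB stages (1 of 10; all genes, 4.77%). Dppa3 fell by 0.80 ± 0.28 on the log2 scale to 48 hr (adjusted p = 0.039) and by 1.33 ± 0.28 from 48 hr to 96 hr (adjusted p = 0.0028). The first call was lost without WT clone 2 or 3, KO clone 1 or 2, or the 48 hr library E14, E2, E3 or H7 (adjusted p = 0.051 to 0.089), and the value was -0.38 against KO mESCs alone (adjusted p = 0.47). The second call held without any single library (adjusted p = 0.0015 to 0.0086).

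Spread between libraries of a stage differed greatly among the members. In mESCs, the highest and lowest of the 6 clones were within 1.31-fold for Klf2, Klf5 within 1.32-fold and Prdm14 within 1.31-fold, against 2.46-fold for Tbx3 and 3.66-fold for Dppa3. At 96 hr the range was 18.2-fold for Tbx3, 9.48-fold for Klf2, 8.57-fold for Zfp42, 5.58-fold for Prdm14, 5.33-fold for Esrrb, 3.68-fold for Dppa3, 3.22-fold for Nanog, 3.19-fold for Tfcp2l1, 1.92-fold for Klf4 and 1.28-fold for Klf5. On the log2 CPM scale, the median range of the 13177 genes with a mean of at least 50 counts was 0.50 in mESCs, 0.59 at 48 hr and 0.67 at 96 hr. At 48 hr all 10 members were above that median range, by the least for Dppa3 (0.82) and by the most for Tbx3 (2.40). Between 48 hr and 96 hr the range went from 1.92 to 0.93 for Klf4 and from 1.21 to 0.35 for Klf5, while it went from 1.55 to 3.24 for Klf2 and from 2.28 to 3.10 for Zfp42.

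**Figure D3:**
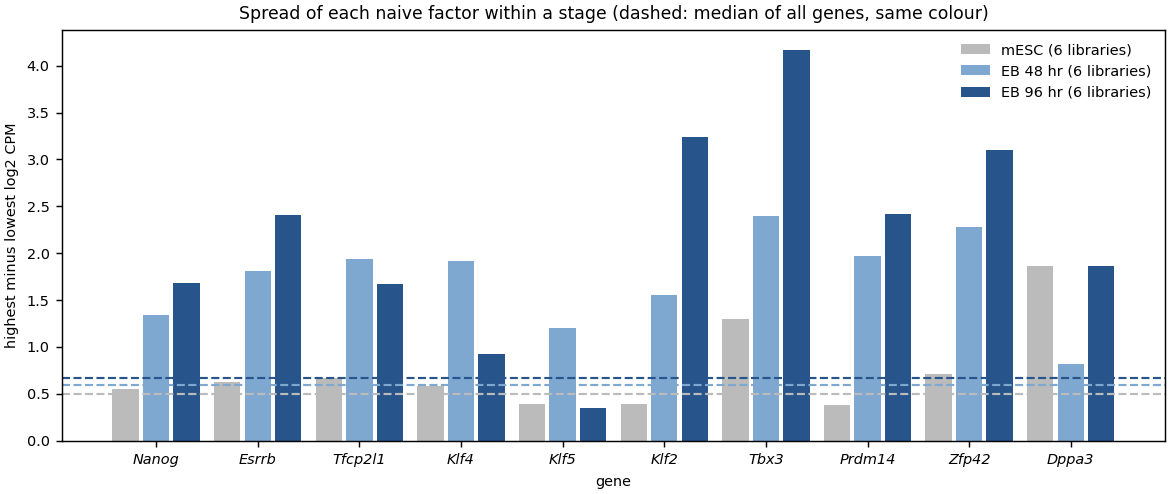
Highest minus lowest log2 CPM of each gene over the 6 mESC clones (grey), the 6 libraries of 48 hr EBs (light blue) and the 6 of 96 hr EBs (dark blue); dashed lines are the medians over 13177 genes in the same colours. Tbx3, Klf2 and Zfp42 have the tallest 96 hr bars (4.17, 3.24 and 3.10), whereas Klf5 (0.35) is below the median of all genes.

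At 96 hr, 7 of the 10 members had their 3 highest values in D4, E2 and E3 (Esrrb, Tfcp2l1, Klf4, Klf2, Prdm14, Zfp42 and Dppa3). Nanog, Klf5 and Tbx3 did not: the 2 highest values were in H7 and H9 for Nanog, in E2 and H9 for Klf5 and in E14 and E3 for Tbx3. At 48 hr, D4, E2 and E3 held the 3 highest values of 9 members, all but Dppa3. The libraries of each stage are of both genotypes, and whether these orders follow the genotype cannot be told from the labels. The share of all genes with the same orders was not counted, so the orders are not shown to be particular to the members.

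**Figure D4:**
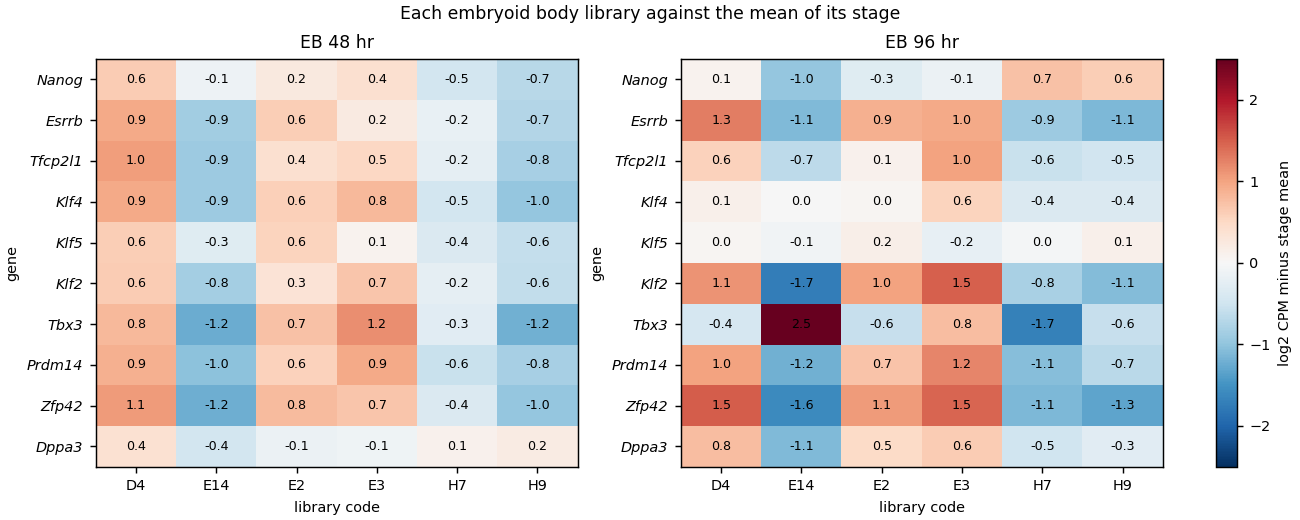
Log2 CPM of each gene in each EB library minus the mean of the 6 libraries of that stage, at 48 hr (left) and 96 hr (right), with library codes as columns and red above and blue below the mean. D4 is above the mean for all 10 genes at 48 hr, while at 96 hr the row of Klf5 is nearly flat, Nanog is above the mean in H7 (0.73) and H9, and Tbx3 is above it in E14 (2.49).

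In mESCs, the comparison of KO with WT asked whether loss of IκBα shifted the naive factors while LIF was present. Of the 10, 1 was higher in KO clones (Zfp42; all genes, 3.09%) and none was lower (all genes, 1.69%), at an adjusted p under 0.05 over 21843 genes. At an unadjusted p under 0.05, 3 were higher (Nanog, Klf2 and Zfp42; all genes, 12.5%) and 1 lower (Dppa3; all genes, 9.09%) with edgeR. DESeq2 called Dppa3 as well as Zfp42 at an adjusted p under 0.05. Zfp42 was 1.41-fold higher (log2 fold change 0.49 ± 0.11, adjusted p = 0.048), with all KO clones above all WT clones. Klf2 was the other member with all KO clones above WT (2 of 10; all genes, 15.1%), at 0.23 ± 0.07 (adjusted p = 0.105). Dppa3 alone had all KO clones below WT (1 of 10; all genes, 13.9%), at -0.85 ± 0.27 (adjusted p = 0.11), with KO clone 3 the lowest at 13.9 CPM. The remaining 7 lay between -0.12 (Tfcp2l1) and 0.46 (Tbx3), with adjusted p of 0.19 to 0.92. The median over the members was 0.12, beside 0.01 for all genes.

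The Zfp42 call changed with the clones in the fit. Without WT clone 1, 2 or 3 or KO clone 1 or 3, its adjusted p was 0.13 to 0.22, while without KO clone 2 it was 1.4e-05, and Klf4 (0.35, adjusted p = 0.029) and Klf2 (0.20, adjusted p = 0.035) were then called too. KO clone 2 had the lowest Zfp42 of the KO clones (836 CPM), and lacked the endoderm signal of KO clones 1 and 3. It also had the lowest median of the KO clones for the 10 Mb window around Zfp42, given below. Endoderm genes Gata4 and Gata6 had 10.4 and 6.57 CPM in KO clone 1, 13.8 and 10.4 in KO clone 3, and at most 2.34 and 0.83 in the other mESC clones. Their part in the Zfp42 value was not tested.

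Zfp42 and Klf2 lie on chromosome 8, where other genes were also higher in KO clones. In the 10 Mb window of Zfp42 (40 to 50 Mb, 33 other genes with a mean of at least 50 counts), the median gene was above the WT mean by 0.37 to 0.62 on the log2 scale in the KO clones, and Zfp42 itself by 0.22 to 0.63. KO clone 2 was the lowest of the KO clones for both, at 0.37 for the window and 0.22 for Zfp42. The window and Zfp42 stood at 0.58 and 0.63 in KO clone 1 and at 0.62 and 0.59 in KO clone 3. The difference between Zfp42 and its window was -0.15 to 0.05 in the KO clones. In the window of Klf2 (70 to 80 Mb, 113 genes), the median gene was above the WT mean by 0.32 to 0.53 and Klf2 by 0.17 to 0.31. When each 10 Mb window of each library was set to its own median, Zfp42 was at -0.04 ± 0.07 (adjusted p = 0.82) and Klf2 at -0.21 ± 0.09 (adjusted p = 0.25). For the other 8 members, the median log2 fold change of the window lay between -0.12 and 0.04. Single clones departed from this. In KO clone 2, the Esrrb window was at -0.38 with Esrrb at -0.43, and the Klf5 window, of only 7 genes, was at -0.29 with Klf5 at -0.29.

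**Figure D5:**
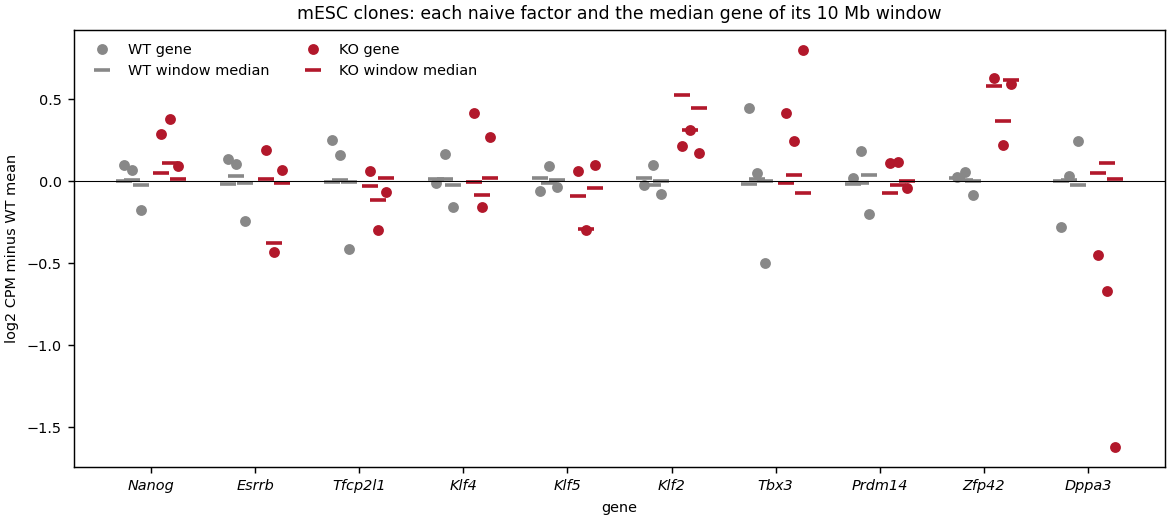
Log2 CPM minus the mean of the WT clones for each gene (points) and for the median gene of its 10 Mb window (dashes) in the 3 WT (grey) and 3 KO (red) mESC clones. For Zfp42 the red points lie at 0.22 to 0.63 with the red dashes at 0.37 to 0.62, whereas for Dppa3 the lowest point is at -1.62 with the dashes of the KO clones at 0.01 to 0.11.

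At 96 hr the windows varied less than the genes, but a window value is a median over genes and varies less by construction. Among the libraries of that stage, the range over libraries was 3.10 for Zfp42 and 0.42 for its window, and 3.24 for Klf2 and 0.61 for its window. Esrrb had a range of 2.41 there, with 0.39 for its window on chromosome 12. That window was at -0.31 from the stage mean in E3, where Esrrb was at 0.96. It was at 0.01 to 0.09 in the other libraries. Against the stage mean, the Klf2 window stood at 0.35 in D4, 0.36 in E2 and 0.01 in E3. It stood at -0.25 in E14, -0.20 in H7 and -0.24 in H9. The part of such regional shifts in the EB values was not tested.

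A list of 30 other genes tied to the naive state or its LIF input was examined beside the members. Over all genes, 12.7% were lower and 15.6% higher to 48 hr. The shares were 14% and 14.1% from 48 hr to 96 hr, and 19.6% and 23.6% from mESCs to 96 hr. They apply to the lists that follow as well. To 48 hr, 10 were lower and 4 higher (median log2 fold change -0.57), from 48 hr to 96 hr 16 were lower and 1 higher (median -0.92), and from mESCs to 96 hr 21 were lower and 2 higher (median -1.43). The largest decreases at 96 hr against mESCs were of the small GTPase gene Mras (-4.48 ± 0.52, adjusted p = 3.5e-06), the junction protein gene Jam2 (-3.90 ± 0.72, adjusted p = 0.00032), the AKT coactivator gene Tcl1 (-3.63 ± 0.55, adjusted p = 5.0e-05) and the STAT3 feedback inhibitor gene Socs3 (-3.31 ± 0.24, adjusted p = 4.1e-08). Socs3 went from a median of 51.8 CPM in mESCs to 3.30 at 48 hr and 4.25 at 96 hr, and Mras from 34.5 to 2.48 and 1.34. With pairing, 23 of the 30 were lower in the second step (all genes, 18.5%). In KO against WT mESCs, 2 of the 30 were lower (all genes, 1.69%) and 1 higher (all genes, 3.09%).

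Of 12 general pluripotency genes, 3 were lower and 3 higher at 48 hr, and 8 were lower and 1 higher at 96 hr against mESCs (median -0.59). Sox2, the HMG partner of OCT4, had the largest change (-1.64 ± 0.29, adjusted p = 0.00025), with medians of 451, 199 and 142 CPM at 0, 48 and 96 hr, followed by Dppa2 (-1.18 ± 0.35, adjusted p = 0.012). Dppa2 had a median of 143 CPM in mESCs, 172 at 48 hr and 64.3 at 96 hr. Foxd3 was at -0.98 and Dppa4 at -0.85 (adjusted p = 0.0057 and 0.021). Sox2, Sall4, Dppa2 and Dppa4 stand in more than one of the lists used here.

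Of 17 formative or later epiblast genes, 10 were higher and none lower at 48 hr, and 14 were higher and 1 lower at 96 hr against mESCs (median 2.05). T (9.50 ± 1.87), Fgf5 (6.48 ± 0.80), Foxa2 (5.66 ± 1.12) and the N-cadherin gene Cdh2 (4.45 ± 0.79) had the largest increases, with adjusted p of 0.00059, 7.4e-06, 0.00059 and 0.00022, and T and Foxa2 also mark streak and endoderm. The summed level of the list was 665 to 1378 CPM in mESCs, 1586 to 3650 CPM at 48 hr and 1697 to 3197 CPM at 96 hr. In KO against WT mESCs, 7 of the 17 were lower (all genes, 1.69%) and none higher (all genes, 3.09%). Fgf5 was among the 7 (-4.44), so its change from mESCs averages over mESC genotypes with unlike levels. Of 12 streak and mesoderm genes, 1 was higher to 48 hr and 11 were higher from 48 hr to 96 hr (8 with pairing), and their summed level at 96 hr ran from 25.4 CPM in E3 to 1421 CPM in E14. The part of these cells in the members' levels was not tested.

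The 5 genes outside the members with log2 CPM profiles most like the mean of the centred members over the 18 libraries, among 9991 genes with at least 10 CPM on average in a group, were Gnpnat1 (glucosamine-phosphate N-acetyltransferase; r = 0.989), Cd9 (a tetraspanin; 0.988), Emp1 (an epithelial membrane protein; 0.985), Cdc5l (a splicing factor; 0.985) and Eif2s2 (a subunit of translation initiation factor eIF2; 0.983). Their median levels went from 48.0 to 27.8 and 19.5 CPM for Gnpnat1, from 155 to 57.1 and 45.3 for Cd9, from 19.3 to 2.51 and 0.75 for Emp1, from 315 to 200.1 and 149.9 for Cdc5l and from 1204 to 594 and 425 for Eif2s2 at 0, 48 and 96 hr. These correlations rest on libraries that share stages and carry no test. Among the members themselves, the correlation of each with the mean of the other 9 ran from 0.742 (Tbx3), 0.788 (Dppa3), 0.809 (Nanog) and 0.823 (Klf2) up to 0.992 (Tfcp2l1).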

How the data were processed

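RNA was sequenced from 18 libraries. Per the paper's methods and the submitters' processing notes, the authors trimmed reads with Trim Galore 0.6.6, aligned them to GRCm38 with STAR 2.7.8, ran featureCounts (Subread 2.0.1) on the uniquely aligned reads, by exon, and deposited whole-number counts for 55487 genes. The authors also deposited log2 values for 25318 genes, from the variance-stabilizing transformation of DESeq2 1.38.3, used here only as an alternative.

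Testing took in every gene whose counts summed to 10 or more in a fit, in R 4.3.3 with edgeR 4.0.16 (TMM, robust quasi-likelihood, Benjamini-Hochberg): 1 fit of 18 libraries in 4 groups for stages, the mESC level being the mean of WT and KO, and 1 fit of 6 libraries (21843 genes) for KO against WT mESCs. Each standard error (SE) was obtained from the fold change and its F value (size of log2 change over root F). CPM used TMM over 18 libraries, and log2 CPM a prior count of 2. Totals of 28287582 to 40904247 counts leave the spread between libraries as the limit on precision for all but the lowest genes. Exon lengths and positions came from GENCODE M21 on GRCm38.

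Codes in the EB column names match no sample label. Same-coded 48 hr and 96 hr libraries deviated together from their stage means (r = 0.40 to 0.73 in 6 of 6 codes, 5 of them best matches), so the code was used as a block; it is printed where it changed a call. No 2 libraries of a group were duplicates (lowest chi-square ratio to its degrees of freedom, 5.00).

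The 10 genes and all gene lists were chosen with earlier results of these data known. Beside the members, the genes named are Nfkbia, up to 4 genes of a list with the largest called change from mESCs to 96 hr, the 5 genes most like the members, and markers that check stage or cell type; a few others were named after their values were seen. On simulated counts for 48 hr EBs against mESCs (25340 genes), edgeR recovered 60 of 63 genes changed by 0.7 on the log2 scale. It recovered 83 of 83 changed by 1.5 and 54 of 54 changed by 3, with 11 false calls. For KO against WT mESCs (22015 genes) it recovered 47 of 63, 83 of 83 and 54 of 54, with 7 false calls. The simulated libraries were independent, with a small set spread and no mixing of genotypes, and changed genes had a mean of at least 50 counts. These rates check that the fit runs correctly. They do not give its power for members that spread widely within an EB stage. Alternatives were DESeq2 1.42.0 size factors and Wald test, 2 other filters, only the stages compared, 1 mESC genotype as reference, limma 3.58.1 on the authors' log2 values, each library left out, blocks, and a 10 Mb window offset.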

Additional observations from a re-analysis of the deposited data

Results flagged for a closer look

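Tbx3 in the 96 hr EB library E14 stood at 76.9 CPM, while the other 5 libraries of that stage had 4.22 to 23.6 CPM. On the CPM scale, the gap to the next library, divided by the range of the stage, was above Dixon's 95% limit for 6 samples. The rule was not applied to log2 CPM, where E14 had 6.27, the next library (E3) 4.56 and the lowest (H7) 2.10. The flag therefore holds for the CPM scale only. This was 1 of 22 groups examined (the 10 members and Nfkbia at 2 EB stages), and chance flags about 1 group in 20. The same library had the lowest values of the stage for Nanog (83.8 CPM), Klf2 (15.2 CPM), Zfp42 (24.9 CPM), Prdm14 (1.10 CPM), Tfcp2l1 (18.1 CPM) and Dppa3 (3.09 CPM).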

How the results depend on the processing

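With limma on the authors' log2 values, 260 genes passed both thresholds (adjusted p under 0.05, log2 change over 1) at 48 hr, 329 between the EB stages and 908 at 96 hr against mESCs, beside 2422, 2986 and 5225 in the edgeR fit. Without the fold threshold the counts were 7169, 7111 and 10948. For KO against WT mESCs, 372 genes became 572 with DESeq2 and 1046 without the fold threshold. Leaving out 1 library gave 2032 to 2642, 2110 to 4140 and 4594 to 6031 genes at the stages. In mESCs it gave 0 (without WT clone 2) to 872 (without KO clone 2), with 174, 25, 198 and 114 without WT 1, WT 3, KO 1 and KO 3.

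Members called between the EB stages numbered 2. They were 1 without a count filter and with the EB stages alone, 5 with the code as a block, and 1 to 3 with a library left out. Klf2 was at -0.02, and turned to 0.018 without a filter, 0.0054 with filterByExpr and 0.0053 with the EB stages alone, and ranged from -0.36 to 0.23 with a library left out. Nanog ranged from -0.046 to 0.29. At 48 hr, 7 to 9 members were called with a library left out, and at 96 hr against mESCs 9 to 10. Tbx3 passed at 48 hr with DESeq2, limma and only the stages compared (adjusted p = 0.027, 0.015 and 0.011), and missed at 96 hr against WT mESCs alone (0.074). Klf2 passed at 96 hr with limma (0.016). The cause was not tested.

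In mESCs, 1 member was called. That became 2 with DESeq2 (Dppa3, adjusted p = 0.016), 0 with the window offset and 0 to 3 with a clone left out. The mESC replicate numbers did not pair the clones (r = -0.12 to -0.01). A replicate block gave 0 members and 261 genes, with Zfp42 at 0.48 (adjusted p = 0.064). With the window offset, Esrrb was at 0.070, Klf2 at -0.21 and Zfp42 at -0.036. With a clone left out, Esrrb ranged from -0.17 to 0.13, Tfcp2l1 from -0.31 to 0.0087, Klf5 from -0.11 to 0.089 and Prdm14 from -0.047 to 0.14. The code block changed no other call of a member than those given in the report.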

Other observations

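Lists of other cell types were compared across the stages. Over all genes tested, 23.6% were higher and 19.6% lower from mESCs to 96 hr. From 48 hr to 96 hr, 14.1% of all genes were higher and 14% lower. From mESCs to 96 hr, 6 of 12 primitive endoderm genes were higher and 1 lower, led by Foxa2 (log2 fold change 5.66), Afp (4.12), Sox17 (3.32) and Gata6 (2.31). Afp reached at most 1.03 CPM in a 96 hr library. From 48 hr to 96 hr, 5 of them were higher, and 1 with the code as a block. Of 10 neuroectoderm genes, 6 were higher at 96 hr, including Zfp521 (4.38), Sox3 (2.97) and Nes (2.00), as were 6 of 10 blood and endothelium genes, including Lmo2 (3.79), Tal1 (3.76) and Etv2 (3.16). From 48 hr to 96 hr 7 of the blood and endothelium genes were higher, and 2 with the code as a block. The high level of that list lay in 1 library. Its summed level at 96 hr was 289 CPM in E14 and 31.9 to 91.0 CPM in the others, beside 70.1 to 126 CPM in mESCs. The median sum was 94.3 CPM at 48 hr and 78.5 CPM at 96 hr. Of 10 trophectoderm genes, 6 were higher and 1 lower at 96 hr, with Eomes (4.41), Tpbpa (4.51) and Cdx2 (3.96) among them. Tpbpa was near the floor, at most 0.39 CPM at 96 hr, and Cdx2 had a median of 2.56 CPM. Eomes had 236 to 262 CPM in E14, H7 and H9, the libraries also high for T, and 12.2 to 19.8 CPM in D4, E2 and E3. Of 10 fibroblast genes, 2 were higher, Col1a2 (3.09) and Dcn (3.49), with 96 hr medians of 3.06 and 0.19 CPM. Of 10 germ cell genes, 4 were lower and 1 higher, with Tfap2c at -1.88, Dazl at -1.40, Dppa2 at -1.18 and Mael at -1.06. Of 10 genes of the 2-cell-like state, 8 were lower from 48 hr to 96 hr and none was called between mESCs and 96 hr.

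At 96 hr, 7 of the 10 members had their 3 highest values in the same 3 codes, with gaps of different width below them. In the order D4, E14, E2, E3, H7 and H9, Zfp42 had 213, 24.9, 157, 204, 34.1 and 29.7 CPM. Klf2 had 111, 15.2, 101.8, 144, 29.0 and 23.8 CPM, and Esrrb had 164, 31.4, 124, 130.4, 35.7 and 30.7 CPM. For Tfcp2l1 the values were 42.5, 18.1, 30.8, 57.7, 19.5 and 20.5 CPM, for Prdm14 5.26, 1.10, 4.30, 6.14, 1.21 and 1.62 CPM, for Dppa3 11.4, 3.09, 9.37, 10.4, 4.69 and 5.45 CPM and for Klf4 6.19, 5.64, 5.82, 8.40, 4.38 and 4.40 CPM. Nanog had 172, 83.8, 132, 147, 269.96 and 249 CPM, and Klf5 33.5, 30.8, 36.2, 28.3, 31.4 and 35.6 CPM. The codes come from the column names, and no label gives their genotype. How common this order is among all genes was not counted.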
